A study of Drosophila melanogaster with 8 samples.

Results

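The distal 500 kb of the chromosome arms 2L, 3L, 3R and X were examined for H3K36me3, the trimethylation of lysine 36 of histone H3, in *Drosophila melanogaster* embryos. The regions were chosen by position alone. They hold every genomic probe of the tiling arrays whose midpoint lies within 500 kb of the start of 2L, 3L or X, or within 500 kb of the last probe of 3R. This gave 7564 of 475395 probes, with 2005 on 2L, 2003 on 3L, 2009 on 3R and 1547 on X. Positions are those of the array files, which name no genome build. The outermost probes begin at 5448 on 2L and at 3333 on 3L, and distances on 3R are counted from the end of its last probe. On X the first probe begins at 100389, so that nothing was measured in the outermost 100 kb of this arm.

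H3K36me3 is placed on nucleosomes in the bodies of transcribed genes by a methyltransferase that travels with elongating RNA polymerase II, and dKDM4A is a demethylase that removes it and binds the heterochromatin protein HP1a, which also sits at chromosome caps. *Drosophila* chromosomes end in arrays of telomere-specific retrotransposons, followed by satellite-like telomere-associated repeats and then by ordinary gene-bearing sequence. Reporter genes inserted close to the repeats are often silenced, and subtelomeric sequence is known to vary between laboratory stocks.

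Chromatin came from whole embryos, collected from population cages 2 to 4 hr after egg laying. The mutant was the *dkdm4a* line y1 w67c23; P{SUPor-P}Kdm4A KG04636, in which a P-element with the marker genes y+mDint2 and wBR.E.BR sits in the first exon of *Kdm4A*. The wild type was a line in which this element had been precisely excised, so that both lines share the y1 w67c23 origin. The excision line was made by a cross to a transposase stock and screened by loss of eye colour, and it is a single derived line. There were 2 biological samples of each genotype, and each sample was hybridized to 2 array designs (8 arrays). The end of 2L lies on 1 design and the other ends on the other. IP DNA was in the Cy5 channel and input DNA in the Cy3 channel of every array without a dye swap, so that IP and dye cannot be told apart. The level used throughout is log2 of IP over input minus the median of the array, and a level of 0 is therefore the middle of the array. Across the designs, 96.7% to 99.1% of probes were well above background in the input and 85.6% to 93.3% in the IP, with replicate 1 brighter than replicate 2 in both genotypes. Replicates 1 of both genotypes were scanned on one day and replicates 2 on another.

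The arm ends carried more H3K36me3 than the rest of their arms in all 4 samples, and the excess was largest on 2L. The mean level over the end of 2L was 1.67 and 1.89 in the wild type samples and 1.64 and 1.92 in the mutant samples. The rest of 2L, without the 1 Mb next to the centromere, had 0.57 and 0.74 in wild type and 0.59 and 0.76 in the mutant. The groups of end and rest did not overlap, and the end exceeded the rest by 1.12 ± 0.05 (SD over 4 samples). On 3L the end had 1.38 and 1.57 in wild type and 1.35 and 1.57 in the mutant, against 0.63 to 0.81 in the rest, which is an excess of 0.75 ± 0.03 (SD, n = 4). On 3R the end had 0.94 and 1.10 in wild type and 0.93 and 1.12 in the mutant. The rest of 3R on the same array design had 0.61 to 0.77, and the excess was 0.33 ± 0.03 (SD, n = 4). The end of X had 0.90 and 1.06 in wild type and 0.89 and 1.09 in the mutant against 0.72 to 0.92 in the rest, an excess of only 0.16 ± 0.01 (SD, n = 4). Averaged over the 4 arms the excess was 0.59 ± 0.03 and was positive in 4 of 4 samples. An exact sign permutation test over 4 samples (two-sided) gave p = 0.12 on every arm, which is the smallest value that 4 samples allow. The test and the SDs describe how alike the samples were, and not the spread among stretches of an arm.

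**Figure D1:**
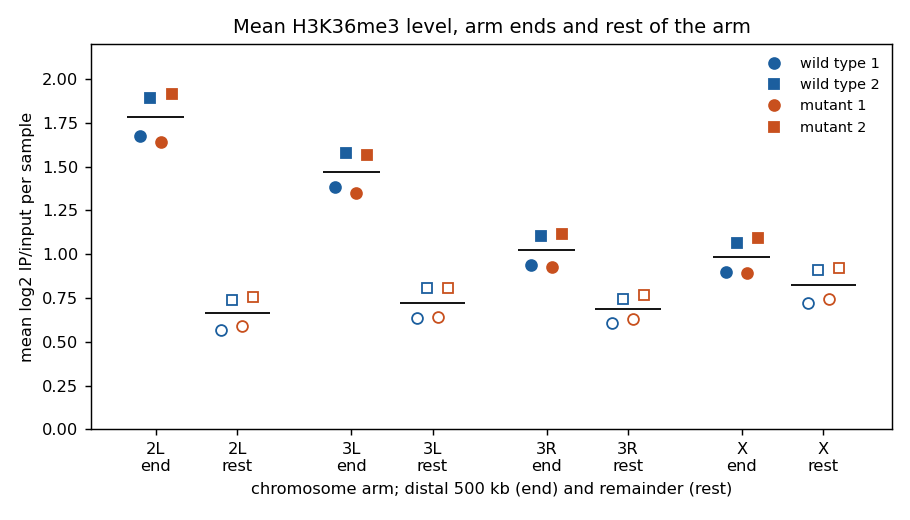
Mean log2 IP/input over the distal 500 kb (end, filled) and over the remainder (rest, open) of each arm, 1 point per sample with circles for replicate 1 and squares for replicate 2; horizontal lines are means of 4 samples. The end of 2L lies at 1.64 to 1.92 and its rest at 0.57 to 0.76, and replicate 2 is above replicate 1 in each group.

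The size of the excess depended on where the boundary was drawn. With ends of 250 kb the excess was 1.49 on 2L and 1.16 on 3L, but it turned to -0.20 on X and -0.61 on 3R, and with ends of 1 Mb it was 0.46 on 2L, 0.38 on 3L, -0.11 on X and -0.13 on 3R. Set beside all other 500 kb stretches of the same arm, the end of 2L had the rank 4 of 43 by wild type level, that of 3L 6 of 45, that of 3R 13 of 54 and that of X 18 of 42. The stretch next to the end was lower on each arm, at 0.45 on 2L, 0.76 on 3L, 0.12 on 3R and 0.50 on X.

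The level did not fall or rise steadily towards the tip. It alternated between plateaus and flat stretches at or below 0, at different distances on each arm. In bins of 50 kb the wild type mean ranged from -0.59 to 4.19, and 20 of 38 bins had a mean of at least 1 while 11 were below 0. On 3L the outermost bin had only 0.21 and 0.29 in the wild type samples and 0.05 and 0.27 in the mutant samples, and the bin from 50 to 100 kb was below 0 in all samples (-0.29 and -0.20 in wild type, -0.17 and -0.15 in the mutant). Farther in, the bin from 200 to 250 kb had 3.92 and 4.46 in wild type and 3.82 and 4.41 in the mutant, the highest of the 38 bins. On 2L no bin was below 0. Its outermost bin had 1.39 and 1.56 in wild type and 1.41 and 1.81 in the mutant, and its highest, from 200 to 250 kb, had 3.42 and 3.79 in wild type and 3.23 and 3.70 in the mutant.

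On 3R a marked stretch lay at the very end and was followed by a long flat one. The outermost bin of 3R had 1.14 and 1.30 in wild type and 1.06 and 1.34 in the mutant. The next 3 bins, from 50 to 200 kb, were all below 0, down to -0.52 and -0.65 in the wild type samples. The bin from 450 to 500 kb had 3.39 and 3.79 in wild type and 3.35 and 3.79 in the mutant. On X the most distal measured bin, from 100 to 150 kb, had 2.10 and 2.50 in wild type and 2.09 and 2.54 in the mutant. The 3 bins that follow it, from 150 to 300 kb, lay between -0.44 and -0.28 in the wild type samples and between -0.39 and -0.14 in the mutant samples. The highest bins of X and 3R were thus the innermost ones, from 450 to 500 kb, whereas those of 2L and 3L lay from 200 to 250 kb.

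**Figure D2:**
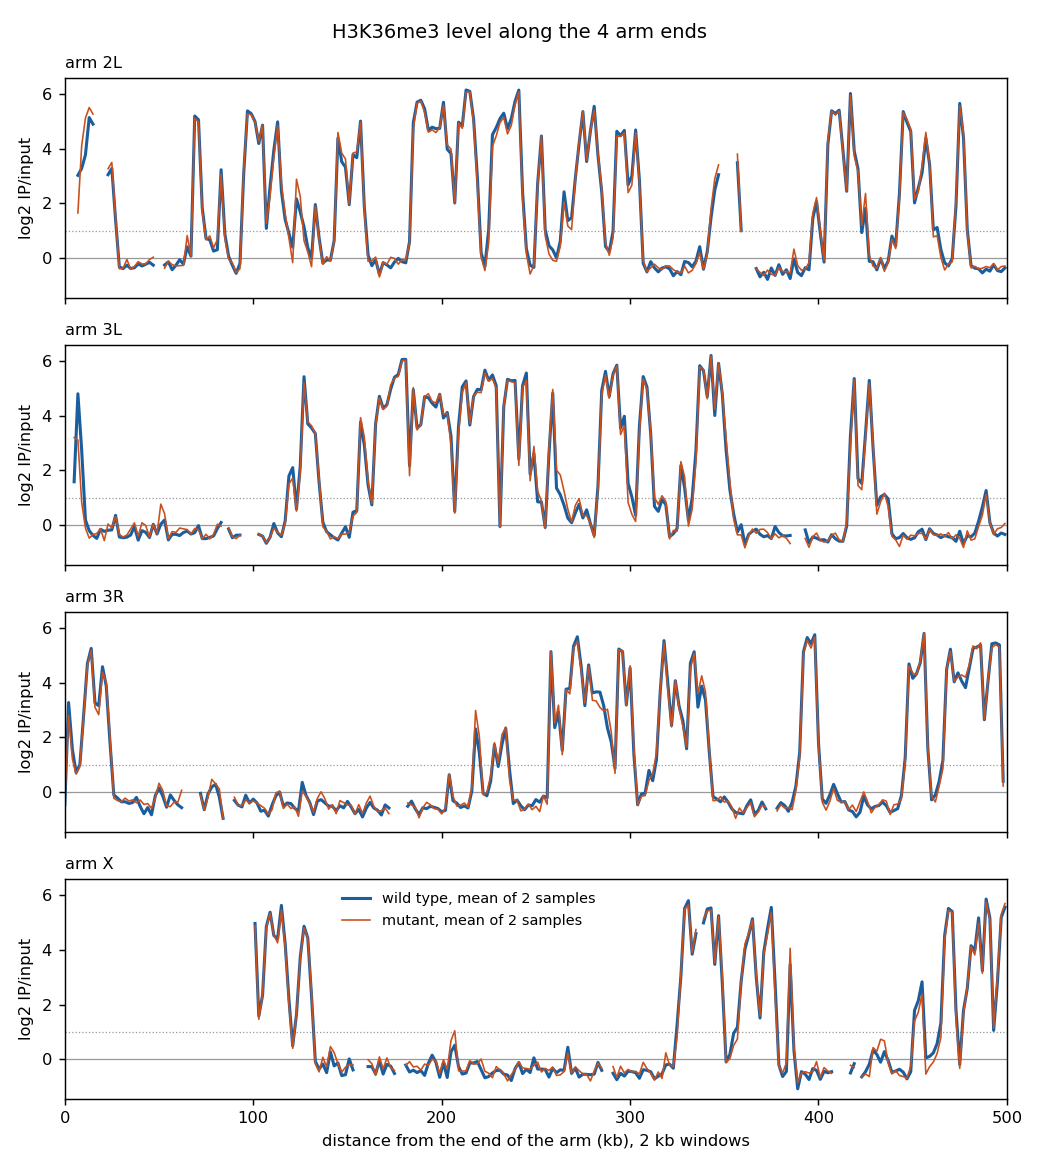
H3K36me3 level (log2 IP/input) in 2 kb windows against the distance from the end of the arm in kb, as the mean of the 2 wild type (blue) and of the 2 mutant samples (orange); lines are broken where windows were missing, the solid grey line is 0 and the dotted line is 1. Plateaus of up to about 6 alternate with stretches below 0 on all arms, and both genotypes follow nearly the same course.

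In wild type, 354 of 901 windows of 2 kb in the arm ends (39.3%) had a mean level of at least 1, against 26.7% of 57266 windows over all sequences and 24.9% of the windows in the rest of the 4 arms. The share was 50.0% on 2L, 39.6% on 3L, 34.5% on 3R and 31.6% on X. Windows of at least 4 made up 18.9% of the arm ends and 11.7% of the rest of the arms. The 354 include 4 windows at the tips of 2L and 3L in which the input was near background in at least 1 genotype. The single samples had shares at a level of at least 1 of 38.6% and 39.4% in wild type and 37.7% and 39.3% in the mutant, and the difference between genotypes of -0.499 percentage points was smaller than the spread of the mutant samples (SD 1.10). An exact permutation of the genotype over 4 samples gave p = 0.667, where 0.33 is the smallest value possible.

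The marked windows formed 49 domains, which are runs of at least 2 adjacent windows with a wild type mean of at least 1, and 30 of them were 10 kb or longer. They include the outermost domains of 2L, from 6001 to 16000, and of 3L, from 4001 to 10000. Each of these 2 held 2 windows with an input near background in at least 1 genotype. The longest domain was on 3L from 164001 to 206000, 165 kb from the end and 42 kb long. Its mean level was 4.22 and 4.69 in wild type and 4.16 and 4.71 in the mutant. It was followed, after a break of 1 window, by a domain of 22 kb from 208001 to 230000 with 4.54 and 5.22 in wild type and 4.42 and 5.15 in the mutant. On 2L the longest domain ran from 184001 to 220000 (36 kb), with 4.52 and 5.07 in wild type and 4.44 and 5.03 in the mutant. The next longest of 2L, from 94001 to 118000, had 3.44 and 3.94 in wild type and 3.38 and 4.00 in the mutant. Within replicates 1 and 2, the mutant differed from wild type by -0.06 and 0.02, by -0.12 and -0.07, by -0.08 and -0.04, and by -0.06 and 0.06 in these 4 domains.

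On 3R the longest domains ran from 27604001 to 27638000 (34 kb) and from 27398001 to 27430000 (32 kb). The former had 3.32 and 3.88 in wild type and 3.32 and 3.81 in the mutant, and the latter had 4.15 and 4.67 in wild type and 4.13 and 4.70 in the mutant. On X they ran from 476001 to 500000, up to the inner border of the region, and from 356001 to 378000. They had 3.67 and 4.08, and 3.33 and 3.80, in wild type and 3.63 and 4.09, and 3.26 and 3.69, in the mutant. Over the 30 domains of 10 kb or longer the mutant differed from wild type by -0.25 to 0.30, with 5 higher in both replicates and 14 lower in both. The domains were bounded by the wild type level, which also enters this difference and by itself favours lower values in the mutant. No test was made of these counts, and no such count over all sequences is given. The value of 0.30 belongs to the 2L domain from 6001 to 16000, which is 1 of the 5 higher. In 2 of its 5 windows the wild type input was near background. The next highest of the 30 values was 0.12. The longest runs of windows below 0 spanned 76 kb on 3R (34 windows, wild type -0.53 and -0.56), 56 kb on X (26 windows, -0.43 and -0.52), 56 kb on 3L (25 windows, -0.35 and -0.43) and 36 kb on 2L (16 windows, -0.26 and -0.25).

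The highest windows of the 4 arms lay between 5.33 and 6.61 in the wild type samples. Those of 2L, 212001 to 214000 and 240001 to 242000, had 5.82 and 6.45, and 5.80 and 6.47, in wild type. On 3L the highest were 342001 to 344000 with 5.77 and 6.61 and 180001 to 182000 with 5.66 and 6.44. On X they were 488001 to 490000 with 5.58 and 6.10 and 330001 to 332000 with 5.46 and 6.11. The highest of 3R, 27438001 to 27440000 and 27496001 to 27498000, had 5.38 and 6.21, and 5.33 and 6.16. Replicate 2 was above replicate 1 in every one of these windows and in 33 of 38 bins of 50 kb in wild type, and the SD over the probes was 2.17 and 2.44 in the wild type samples. In the mutant these 8 windows differed from wild type by -0.16 to 0.01, and none passed the test without the replicate block. With the block the window of X from 330001 was lower by 0.16 (adjusted p = 0.0126, limma). All 8 were picked as the highest in wild type, and the wild type level also enters these differences.

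The comparison of the mutant with wild type asked whether loss of the demethylase changed H3K36me3 near the telomeres. Each array was centred on its own median, so that a change shared by all sequences cannot be seen here. The study reports more bulk H3K36me3 in the mutant by western blot of embryo histones. Values below are therefore changes relative to the middle of the array. With the processed signals, the difference over each whole arm end was smaller than the spread between samples. The mutant minus wild type was -0.03 and 0.03 in replicates 1 and 2 on 2L, -0.03 and -0.01 on 3L, -0.01 and 0.01 on 3R, and 0.00 and 0.03 on X, while samples of 1 genotype differed by an SD of 0.11 to 0.19. Exact permutation of the genotype over 4 samples (two-sided) gave p = 1 on 2L, 3R and X and p = 0.667 on 3L. With normexp background correction the end of 2L had 0.97 and 0.57 in wild type and 1.20 and 1.31 in the mutant, without overlap. The difference of 0.48 was 0.23 in replicate 1 and 0.74 in replicate 2. The rest of 2L differed by 0.20, with 0.21 and 0.20 in the replicates. In replicate 1 the end of 2L thus differed about as much as its rest. The other 3 ends differed by -0.09 to -0.04. Among the 38 bins of 50 kb the change ranged from -0.17 to 0.13, and with limma over 2509 bins none of the 38 passed an adjusted p of 0.05 and none had an unadjusted p under 0.05, where 0.478% of all bins were called increased and 0.120% decreased.

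The replicate number was also used as a block, since both genotypes of a number share a scan day. With it, 3 of the 38 bins were increased and 3 of the 38 decreased, against 20.4% and 7.53% of all bins. These were small changes. The largest was in the bin of X from 450 to 500 kb, with 2.75 and 3.01 in wild type and 2.53 and 2.88 in the mutant, a change of -0.17 (SE 0.36 and adjusted p = 1.00 without the block, 3.8e-05 with it). On 2L the bins from 200 to 250 kb and from 250 to 300 kb were lower by 0.14 and 0.12. The outermost bin of 2L (0.13), that from 350 to 400 kb (0.10) and the bin of X from 150 to 200 kb (0.10) were higher. The outermost bin of 2L holds the stretch of differing input described below.

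In windows of 2 kb, limma without the block called 2 of 901 windows increased (0.222%) and 2 decreased (0.222%), against 0.353% and 0.173% of 57266 windows. With the block it called 38 increased (4.22%) and 47 decreased (5.22%), against 5.40% and 3.73%. The median change of the arm-end windows was -0.01 and that of all windows 0.02, and 96.9% of arm-end windows changed by less than 0.5, against 96.3% of all. Both mutant samples were above both wild type samples in 113 windows and below them in 116, which are 12.5% and 12.9% of the arm ends, against 15.9% and 11.7% over all sequences. These shares of the arm ends lay near those of all sequences on the arrays.

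**Figure D3:**
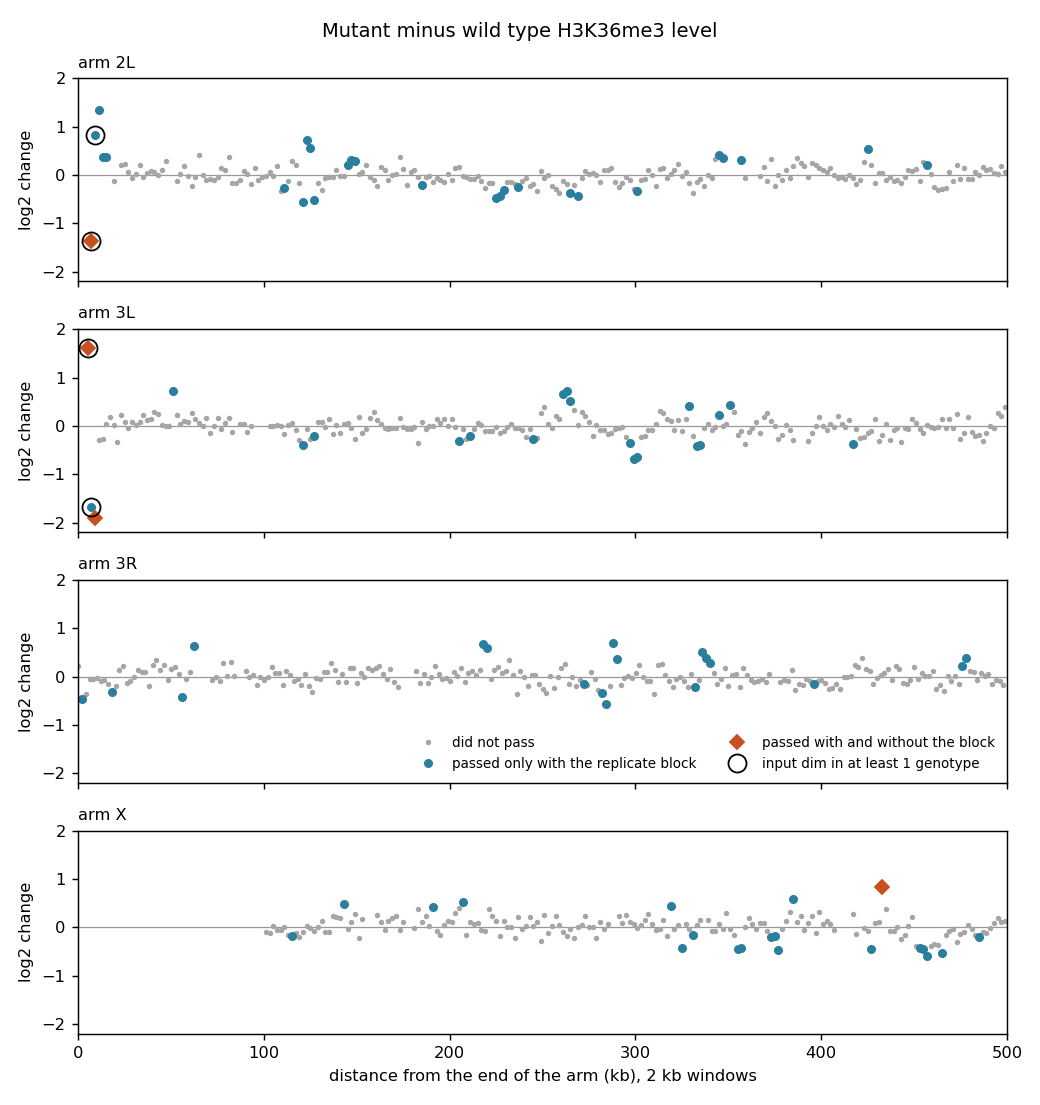
Mutant minus wild type level (log2) of each 2 kb window against the distance from the end of the arm in kb; grey points did not pass, blue points passed only with the replicate block, orange diamonds passed with and without it, and circles mark windows in which the input was dim in at least 1 genotype. Of the 4 windows called without the block, 3 lie in the outermost 10 kb of 2L and 3L and 1 on X.

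Away from the tips, 1 window was called without the block. It lies on X from 432001 to 434000 and had -0.52 and 0.31 in the wild type samples and 0.53 and 0.94 in the mutant samples. The mutant samples were both above the wild type samples, with a change of 0.84 ± 0.21 (SE, adjusted p = 0.0175, limma), and the input of the lines differed by 0.00 and 0.02. Without wild type replicate 1 the change was 0.42 and without mutant replicate 2 it was 0.63, and in neither case did it pass. It did not pass with another background correction (0.49), with loess normalization (0.46), with scaled arrays (0.77), with the deposited log2 ratios (0.77) or with no trend in the variance. The largest fall on X, from 456001 to 458000, had 0.24 and -0.13 in wild type and -0.44 and -0.63 in the mutant, a change of -0.59 ± 0.18 (SE, adjusted p = 0.128 without and 0.00107 with the block, limma).

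On 3L the largest rise among windows with at least 5 probes was from 50001 to 52000, in the flat stretch near the tip, and the rise of a window with 4 probes at the tip is described below. The window had -0.05 and 0.14 in wild type and 0.85 and 0.70 in the mutant, a change of 0.73 ± 0.21 (SE, adjusted p = 0.0899 without and 2.5e-05 with the block, limma). On 3R the largest rise and the largest fall were only 1 window apart, inside the longest domain of that arm. From 27606001 to 27608000 the level was 2.01 and 2.67 in wild type and 2.78 and 3.27 in the mutant, and from 27610001 to 27612000 it was 3.29 and 4.02 in wild type and 2.82 and 3.36 in the mutant. The changes were 0.69 ± 0.37 and -0.56 ± 0.43 (SE), and both passed only with the block (adjusted p = 1.8e-07 and 8.2e-07, limma). The most distal window of 3R, from 27894001, had -0.33 and -0.56 in wild type and -0.44 and 0.00 in the mutant, and that of X, from 100001, had 4.49 and 5.42 in wild type and 4.37 and 5.36 in the mutant. Neither passed with or without the block.

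Windows of each level changed little. Those with a wild type level of at least 4 had a median change of -0.05 in replicate 1 and -0.05 in replicate 2, and 27.6% of the 170 such windows were higher in the mutant, against 34.6% of all windows at this level. Windows below 0 had a median change of 0.01 and 0.04, and 56.6% of the 442 were higher in the mutant, against 60.8% of all. Of the 85 calls with the block, 49 were in windows with a level from 1 to 4, which is 26.6% of the 184 such windows, against 24.5% of all windows at this level. The wild type level enters both sides of this description, and no test was made of it.

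Peaks of the mt/WT track, called on each replicate by the double threshold stated in the Methods of the study and kept where both replicates overlapped, numbered 13 increased and 9 decreased in the arm ends. Over all sequences there were 710 and 734, which is 1.49 and 1.54 for each 1000 probes, against 1.72 and 1.19 in the arm ends. The study reports a larger number of increased peaks, so that these are not its own set, and the reason was not tested. By arm there were 2 increased peaks on 2L, 4 on 3L, 3 on 3R and 4 on X, and 2, 4, 0 and 3 decreased. Of the 13 increased peaks, 11 had a wild type mean above 0. The rule gives no error, and before the last step, which drops peaks with mostly negative mutant probes, there were 14 increased peaks.

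Increased and decreased peaks lay next to each other at the tips of 2L and 3L, where the input differed as described below, and farther in on 2L. On 2L a decreased peak from 120250 to 121564 (0.50 and 0.34 in wild type, -0.36 and -0.16 in the mutant) was followed by an increased peak from 122302 to 125382 (1.69 and 2.56 in wild type, 2.51 and 3.10 in the mutant). The widest increased peak was on 3L from 259939 to 265068, with 1.05 and 1.33 in wild type and 1.68 and 2.01 in the mutant. A decreased peak of 3L from 298034 to 302254 had 1.33 and 1.21 in wild type and 0.58 and 0.67 in the mutant. On X, neighbouring decreased peaks from 450684 to 454027 and from 454327 to 457893 fell by 0.43 and 0.52. At these 6 peaks the mean input of the lines differed by less than 0.05. At the short decreased peaks of 3L from 357880 to 358593 and from 384077 to 384878, with 5 probes each, the level fell by 0.64 and 0.67 and the input was higher in the mutant by 1.11 and 1.59. The part of the input in these changes was not tested.

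The outermost 4 peaks, on 2L and 3L, lay in sequence where the input itself differed between the lines. In the arm ends 172 of 7564 probes (2.27%) had an input that differed by at least 0.5 on the log2 scale in the same direction in both replicates, against 3.18% of all probes. It was higher in the mutant at 71 of them (0.939% of the arm-end probes, against 1.39% of all probes) and lower at 101 (1.34%, against 1.79%). In the arm ends these probes were gathered. Runs of at least 3 such probes held 118 of the 172, in 1 run on 2L, 1 on 3L and 2 on X, and 3R had none. The share in runs over all sequences is not given here. Whether this gathering is particular to the arm ends was not tested. Of 901 windows, 14 differed in input by at least 1 in both replicates, with 3 higher in the mutant (0.33% of the arm-end windows, against 0.103% of all windows) and 11 lower (1.22%, against 0.148%). The 3 are the outermost windows of 2L and the 11 the outermost windows of 3L. In limma no input window passed without the block. At an unadjusted p under 0.05, 7 were increased and 10 decreased in the arm ends (0.777% and 1.11%), against 1.21% and 1.16% of all windows. With the block, 19 of the 901 passed as increased and 62 of the 901 as decreased, against 6.37% and 7.74% of all windows.

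At the tip of 2L the input was near background in wild type and higher in the mutant. Over the 29 probes of the outermost 12 kb, log2 input relative to the array median was -5.89 and -6.13 in wild type and -2.55 and -3.59 in the mutant. Only 8 of 29 probes were well above background in each wild type sample, against 28 and 23 in the mutant samples. The IP signal differed likewise, with -2.63 and -2.62 in wild type and 0.55 and 0.33 in the mutant. The run ended sharply. Of its 24 probes, up to 10868, 23 were higher in the mutant by at least 0.5 in both replicates, whereas the next 5, from 10985, differed by a mean of 0.15. The size of the difference within the run is not given, since only 3 of the 24 probes were well above background in each wild type input. From 12 to 28 kb the input was alike, with 0.11 and -0.36 in wild type and 0.08 and -0.43 in the mutant.

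The ratio in this stretch has little to rest on in wild type. The most distal window of 2L, from 6001 to 8000, had a level of 2.95 and 3.10 in wild type and 1.14 and 2.16 in the mutant. The mutant samples were the lower ones, and limma called the window decreased (adjusted p = 0.0175), but not when wild type replicate 1, wild type replicate 2 or mutant replicate 1 was left out. The difference of -1.37 in the processed signals was -0.05 with normexp, -0.24 with the deposited log2 ratios and -0.45 with loess, and passed with none of them or with no trend in the variance. No fold change is given, since in this window only 11.1% of the probes were well above background in the input of each wild type sample. The window from 10001 to 12000, with the largest rise of 2L, had 3.51 and 4.03 in wild type and 4.60 and 5.62 in the mutant (1.34 ± 0.52 SE, adjusted p = 0.473 without the block and 1.1e-72 with it, limma), and 50% of its probes were well above background in the wild type input. Over the 24 probes of the run the wild type ratio was 2.88 and 3.00, with 3 probes well above background in each wild type input. A dim input gave a ratio of this size elsewhere too. In the mutant window of 3L from 6001 to 8000 it was 3.13 and 3.09, with 0% and 10% of the input probes well above background. The wild type ratio of the run is therefore not read as a level. Beyond the stretch, from 12 to 28 kb, the ratio was 3.15 and 3.59 in wild type and 3.28 and 3.88 in the mutant. In the mutant samples, with most probes above background, the level over the outermost 12 kb of 2L was 2.99 and 3.81.

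At the tip of 3L the difference ran the other way and in 2 steps. Over the 24 probes of the outermost 10 kb, log2 input was -2.64 and -3.27 in wild type and -6.13 and -6.34 in the mutant, and 6 and 7 of the 24 probes were well above background in the mutant samples against 20 in each wild type sample. From 10 to 26 kb the input of 53 probes was -0.37 and -0.83 in wild type and -1.58 and -2.21 in the mutant. All 53 were lower in the mutant in both replicates, which is 2.31-fold and 2.59-fold lower on average, and the differences had an SD over probes of only 0.13. The step at the inner side was sharp. The last 5 probes, up to 26073, were lower by 1.09 and the next 5, from 26386, by 0.15, and from 26 to 50 kb the difference was -0.08 and -0.04 in the replicates.

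From 10 to 26 kb of 3L the IP signal was lower in the mutant to a similar extent as the input (-1.42 and -1.28 against -1.21 and -1.37). The ratio was flat in both lines with -0.24 and -0.16 in wild type and -0.42 and -0.04 in the mutant. Of the 53 probes, 35 and 32 were well above background in the mutant IP, against 47 and 41 in wild type. The fall of the IP is therefore less sure than that of the input. In the outermost 10 kb only 4 and 2 of the 24 probes were well above background in the IP of the mutant samples, so that the falls of the IP and the input cannot be set against each other. There the ratio was 3.04 and 3.48 in wild type and 2.19 and 2.39 in the mutant, and most mutant probes were not well above background. The window of 3L from 8001 to 10000 had 2.57 and 2.91 in wild type and 0.66 and 1.02 in the mutant, the largest fall of all arm-end windows (-1.90 ± 0.30 SE, adjusted p = 4.7e-07, limma). It did not pass with normexp (-1.16), with loess (-2.33, adjusted p = 0.221) or with no trend in the variance (adjusted p = 0.287). Of its probes, 62.5% were well above background in the mutant input. The most distal window, from 4001 to 6000 with 4 probes, had 1.24 and 1.94 in wild type and 3.10 and 3.29 in the mutant. It was called increased (adjusted p = 0.00169, limma), but not when wild type replicate 1, wild type replicate 2 or mutant replicate 2 was left out. The input was dim in both genotypes, with 25% of its probes well above background in wild type and 0% in the mutant, and the sign of the difference turned under another background correction (-0.66).

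**Figure D4:**
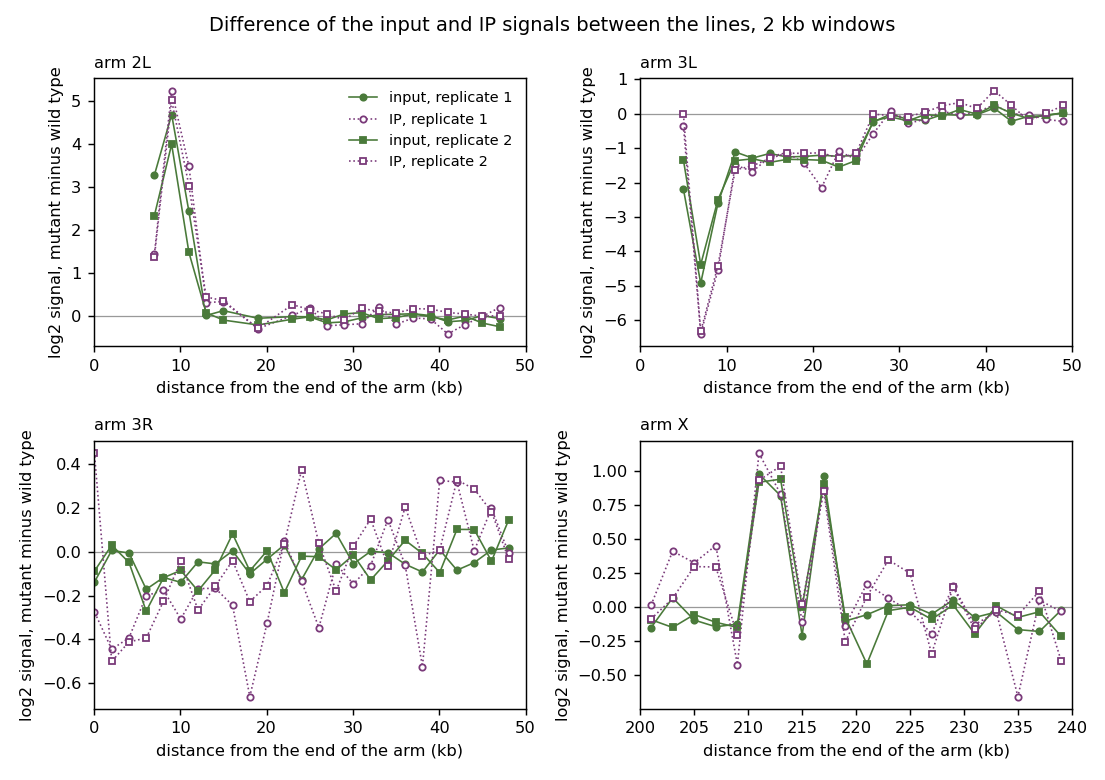
Mutant minus wild type log2 signal of the input (green, filled) and of the IP (purple, open) in 2 kb windows, circles for replicate 1 and squares for replicate 2, against the distance from the end of the arm in kb, for the outer 50 kb of 2L, 3L and 3R and for 200 to 240 kb of X; the vertical scales differ. By window, the input is higher in the mutant up to 12 kb on 2L, lower up to 26 kb on 3L, and higher at 210 to 214 kb and 216 to 218 kb on X. The last of these windows of 2L holds the end of the run of differing probes, at 10868.

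On X the input differed in 2 short blocks with a gap between them, and the ratio did not. From 210001 to 214000 the input was -1.21 and -1.66 in wild type and -0.31 and -0.73 in the mutant, which is 1.86-fold and 1.90-fold higher in the mutant. From 216001 to 218000 it was 0.35 and 0.23 in wild type and 1.31 and 1.13 in the mutant, 1.94-fold and 1.87-fold higher. In the 7 probes between the blocks the difference was -0.21 and 0.00. The borders were again sharp, and the runs of differing probes went from 210489 to 213506 and from 216568 to 218012. Differences over their probes were 0.96 to 1.50 and 1.06 to 1.33. The blocks also hold probes outside the runs, which lowers the folds given above. Within the runs the mean log2 difference was 1.17 and 1.19 in the replicates of the former and 1.23 and 1.15 in the latter. The level was -0.57 and -0.46 in wild type and -0.46 and -0.38 in the mutant in the former block and -0.13 and -0.13 against -0.19 and -0.16 in the latter. The IP was higher in the mutant by 0.98 in both replicates of the former and by 0.87 and 0.85 in the latter. All probes of both blocks were well above background in every input.

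The end of 3R served as a contrast. Over the 41 probes of its outermost 10 kb the input was -0.50 and -1.11 in wild type and -0.59 and -1.21 in the mutant, and the level was 1.23 and 1.49 in wild type and 1.03 and 1.37 in the mutant. Its 10 kb bin from 10 to 20 kb had 3.78 and 4.32 in wild type and 3.54 and 4.24 in the mutant. With the outermost 30 kb of each arm left out, an alternative added after the input values were seen, the excess of the ends over the rest of the arm was 1.06 on 2L, 0.79 on 3L and 0.25 on 3R, and 1 window remained increased and 0 decreased in the fit without the block.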

How the data were processed

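H3K36me3 ChIP-chip of 2 mutant and 2 wild type samples was analysed on 8 Agilent 2-colour arrays. The authors deposited the scanner intensity values of Feature Extraction 10.5.1.1, whose processed signals are background-subtracted, detrended and scaled between dyes by a linear factor, with very low signals replaced by small positive values. The deposited log2 ratios of the same arrays were used as an alternative only. The deposited flags, which are marked as other values, were used to leave out outlier spots and to give the share of probes well above background. The genome build of the probes is not given in the sources used here, no gene was placed on a window, and probe sequences were not used here. limma is named in the submitters' processing notes without a version.

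log2 IP/input was computed from the processed intensities for each probe, minus the median of the array, and 475027 of 475395 probes had a value in all samples (7558 of 7564 in the arm ends). Means were taken over windows of 2 kb with at least 3 probes and bins of 50 kb with at least 20 probes. Differences were tested in R 4.3.3 by limma 3.58.1 over the windows or bins of all sequences, with moderated variances that follow the mean level and Benjamini-Hochberg adjusted p-values at 0.05. The main fit has no block. Replicate numbers pair the samples, because the arrays of one number share a scan day, and over 57266 windows replicate 2 minus replicate 1 in wild type and the same difference in the mutant had r = 0.653 (Pearson, a description). With the block, 1 residual degree of freedom is left and limma relies on the variance shared by all windows. Nothing in the labels says that biological samples came from separate cages. Input was treated in the same way from log2 of the Cy3 signal. Input was called dim in a genotype where fewer than 50% of the probes of a window were well above background in both of its samples. Peaks used a moving average over 5 probes, thresholds of 1 SD and 2 SD above the mean of positive values, at least 3 probes and gaps of at most 1000 bp, with the last filter read as more positive than negative probes in the mean of the mutant samples. The number of arrays limits the precision.

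Windows named are, among those with at least 5 probes, called windows that moved the same way in both replicates, the 2 highest in wild type, the largest rise and the largest fall of each arm end, with the most distal window of at least 3 probes and the 2 longest domains. The segments of differing input were bounded after their values were seen. The members and lists were chosen with earlier results of these data known. Alternatives were other background correction, normalization, scaling, filters, region lengths, windows, thresholds, the replicate block and leaving out each sample. The fits and the peak rule were tested on simulated data. Python 3.11.15 with numpy 2.4.6, pandas 2.3.3, scipy 1.17.1 and matplotlib 3.10.9 was used.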

Additional observations from a re-analysis of the deposited data

How the results depend on the processing

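Of the comparisons, the excess of the arm ends over the rest of the arm stayed positive on 2L and 3L under 17 of 17 alternatives (0.42 to 1.49 and 0.25 to 1.16), and on X and 3R under 15 of 17. The mean of the 4 arms, 2L, 3L, X and 3R in this order had an excess of 0.34, 0.66, 0.43, 0.088 and 0.18 with normexp background correction, of 0.23, 0.42, 0.25, 0.11 and 0.13 with loess within arrays, and of 0.54, 1.03, 0.67, 0.15 and 0.30 with arrays scaled by the median absolute deviation. Ends of 250 kb gave 0.46, 1.49, 1.16, -0.20 and -0.61, ends of 1 Mb gave 0.15, 0.46, 0.38, -0.11 and -0.13, and medians over probes gave 0.40, 0.93, 0.49, 0.025 and 0.16. The deposited log2 ratios gave 0.56 for the mean, 1.06 on 2L and 0.70 on 3L. Against the next 500 kb the mean was 0.85, with 1.31 on 2L, 0.47 on X and 0.89 on 3R. X had 0.19 when probes with a dim input were dropped, and 3L and X had 0.79 and 0.18 without probes of differing input. Without the outermost 30 kb, added after seeing the data, 2L had 1.06, 3L 0.79 and 3R 0.25. Leaving out single samples gave 0.58 to 0.60 for the mean. The mutant minus wild type difference of the end of 2L moved from -0.004 to 0.48 with normexp (0.23 and 0.74 in replicates 1 and 2). The wild type level of the 4 ends was 0.59 with normexp, 0.34 with loess, 0.81 with no centring, 1.19 with scaled arrays, 0.89 with ends of 1 Mb and 0.30 as a median.

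The share of windows at a level of at least 1 was 30.3% with normexp, 17.8% with loess and 34.9% with no centring, and 43.9% and 32.0% at thresholds of 0.5 and 2. The mutant minus wild type share was 0.888 percentage points with normexp and 0.777 with loess. The number of 50 kb bins with a level of at least 1 was 12 with normexp and 3 with loess.

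Counts of called windows were small under all alternatives without the block. Increased and decreased windows numbered 0 and 0 with normexp, 0 and 1 with loess, 0 and 0 without a trend of the variance and 0 and 0 in windows of 5 kb. There were 5 decreased with no centring, 4 increased with scaled arrays, 0 increased with the deposited log2 ratios, 1 decreased with probes well above background, 0 decreased without probes of differing input, 1 increased with at least 5 probes per window, and 1 increased and 0 decreased without the outermost 30 kb. Leaving out single samples gave 0 to 2 increased and 1 to 2 decreased. With the replicate block as a pairing there were 38 increased and 47 decreased windows, and 1 and 1 when it was combined with normexp, and 3 increased and 3 decreased bins of 50 kb. The window of 3L from 4001 had -0.66 with normexp, with and without the block. Input windows numbered 19 increased and 62 decreased with the block, 3 and 3 with the block and normexp, 1 increased with normexp, and 1 to 3 increased and 1 to 4 decreased when single samples were left out. mt/WT peaks numbered 2 increased and 17 decreased with normexp, 7 and 4 with loess, 5 and 4 at 3 SD, and 8 increased with the deposited log2 ratios. With 1 replicate there is no overlap to require, and there were 25 to 28 increased and 29 to 55 decreased. The causes of these shifts were not tested.

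With 2 samples per genotype, permutation tests cannot pass 0.05, and the fit with the block rests on 1 residual degree of freedom. Input near background limits the outermost 12 kb of 2L and 10 kb of 3L. Nothing was measured in the outermost 100 kb of X.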
